A study of Mus musculus with 16 samples.

Results

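The Prader-Willi domain is an imprinted stretch of mouse chromosome 7 whose genes Snrpn, Ndn, Magel2, Mkrn3 and Peg12 are transcribed from the copy inherited from the father. DNA methylation was described here at the CpGs of these 5 genes, each taken from 2000 bp before its start to its end in the GENCODE M21 annotation of mm10. Of the 1203687 CpGs with at least 10 reads in every library, 149 fell in these regions, 24 in Snrpn, 21 in Ndn, 22 in Magel2, 64 in Mkrn3 and 18 in Peg12. The methylation level of a CpG is the percentage of its reads that were called methylated. A level of 0 at one CpG in one line rests on 10 to 83 reads and allows a level of up to 3.61 to 30%.

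Mouse embryonic fibroblasts (MEFs) had been established from sibling C57BL/6J embryos at E13.5 and immortalised by passaging through crisis. The study describes MEF-1 as male and MEF-2 as female. Each parental line, a mixed population, was sequenced once, and each gave 7 clonal lines grown from single sorted cells. The term family is used for a parental line and the clones drawn from it. No treatment was given to any of the 16 cultures, and the lines of a family share one embryo, so tests between the families compare 2 cultures and cannot tell embryo, sex or culture history apart.

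On the maternal copy, the Snrpn promoter is methylated in the egg and acts as the imprinting centre of the domain. The promoters of the other 4 genes, which lie more than 2 Mb away, acquire their methylation later and under its control. A CpG methylated on a single copy in every cell gives a level midway between 0 and 100%, but the counts per CpG used here do not tell the parental copy of a read.

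In GENCODE M21 (mm10) Snrpn (ENSMUSG00000102252.5) spans chr7:59982495-60140219 on the minus strand and Ndn (ENSMUSG00000033585.5) chr7:62346569-62350262 on the plus strand. Magel2 (ENSMUSG00000056972.6) spans chr7:62377010-62381640 on the plus strand, and Mkrn3 (ENSMUSG00000070527.3, chr7:62417593-62420139) and Peg12 (ENSMUSG00000070526.2, chr7:62461871-62464510) lie on the minus strand.

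The promoter of a gene was the 1000 bp on both sides of its transcript start, with at least 3 measured CpGs. The GENCODE M21 start of Ndn (position 62346569) had no measured CpG within 1000 bp, so the window around the RefSeq start at 62348277 was used for this gene, a choice made after the positions were seen. The Snrpn window, at 60005111, also holds the start of Snurf, a small protein encoded by the same transcript. A second Snrpn start, at 60140219, had no measured CpG. By annotation, Snrpn was measured at 21 intronic CpGs and 3 CpGs of its 5′ UTR, and all 21 Ndn CpGs were coding. Magel2 had 13 upstream CpGs and 9 in its 5′ UTR, and Peg12 had 4 upstream and 14 in its 3′ UTR. Mkrn3 had 22 upstream CpGs, 5 in its 5′ UTR, 35 in its coding exon and 2 in its 3′ UTR.

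The stretches that carry the results below are shown on the strand of the gene (GRCm38, the build also named mm10, from RefSeq), with the C and G of each measured CpG in capitals. For Snrpn they are the CpGs closest to the Snurf start codon (chr7:60005036-60005065, minus strand) and the part of the first intron with most CpGs that differed between the families (chr7:60003546-60003776, minus strand). For Ndn (chr7:62348419-62348710, plus strand), Magel2 (chr7:62376608-62376906, plus strand) and Peg12 (chr7:62464675-62464848, minus strand) they are the stretches of the promoter window outside UTRs with most measured CpGs. For Mkrn3 (chr7:62420205-62420495, minus strand) it is the stretch of the window upstream of the gene with most measured CpGs.
Snrpn, first exon: agtgatttgcaaCGcaatggagCGaggaag
Snrpn, first intron: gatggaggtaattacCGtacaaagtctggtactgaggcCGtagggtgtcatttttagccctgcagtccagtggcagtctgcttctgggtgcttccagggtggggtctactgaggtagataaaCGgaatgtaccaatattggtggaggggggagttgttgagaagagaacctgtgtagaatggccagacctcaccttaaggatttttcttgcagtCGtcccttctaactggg
Ndn, coding exon: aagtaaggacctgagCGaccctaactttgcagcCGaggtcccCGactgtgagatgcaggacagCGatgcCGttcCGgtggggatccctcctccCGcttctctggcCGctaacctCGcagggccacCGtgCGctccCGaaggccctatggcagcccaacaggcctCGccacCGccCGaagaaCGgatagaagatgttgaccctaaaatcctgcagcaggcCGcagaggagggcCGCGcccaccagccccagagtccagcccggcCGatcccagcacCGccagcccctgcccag
Magel2, upstream: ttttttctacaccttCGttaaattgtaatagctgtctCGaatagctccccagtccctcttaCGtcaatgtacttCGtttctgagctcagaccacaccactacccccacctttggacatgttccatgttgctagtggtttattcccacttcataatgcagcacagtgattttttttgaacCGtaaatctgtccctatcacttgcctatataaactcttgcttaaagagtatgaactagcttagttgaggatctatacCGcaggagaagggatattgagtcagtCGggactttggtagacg
Mkrn3, upstream: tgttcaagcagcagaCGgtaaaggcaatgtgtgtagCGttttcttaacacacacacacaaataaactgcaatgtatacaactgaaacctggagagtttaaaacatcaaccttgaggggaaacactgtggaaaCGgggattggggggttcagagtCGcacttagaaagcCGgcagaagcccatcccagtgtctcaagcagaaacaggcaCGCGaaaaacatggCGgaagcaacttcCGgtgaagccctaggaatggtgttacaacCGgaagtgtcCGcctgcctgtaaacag
Peg12, upstream: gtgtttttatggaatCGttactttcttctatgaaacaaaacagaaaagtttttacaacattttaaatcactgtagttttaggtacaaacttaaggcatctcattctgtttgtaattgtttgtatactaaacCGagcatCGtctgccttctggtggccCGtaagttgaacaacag
The Ndn stretch was the densest, with 22 CpGs in 292 bases of which 21 were measured, and the Peg12 stretch held 4 CpGs in 174 bases.

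Libraries held 59243669 to 90633091 calls in all (1 call is 1 read over 1 CpG), with a median of 26 to 39 reads per CpG, and 3846 to 7046 calls over the 149 CpGs. Coverage of chromosome 7, relative to chromosomes 3, 4, 6 and 9 and to the median MEF-2 clonal line, was 0.816, 0.801 and 0.844 in lines 1, 3 and 7 of MEF-1, with all other libraries at 0.906 to 1.01. Over the 149 CpGs it was 0.786, 0.839 and 0.854 in these lines. MEF-1 clonal lines 1, 4 and 5 stood apart in chromosome 18 coverage (0.506 to 0.524, the other MEF-1 clonal lines 0.903 to 1.01), and the 3 pairs among them had the lowest chi-square per CpG of the 42 pairs of lines within a family (2.67 to 2.89, the others 3.75 to 7.66). No pair was as alike as sampling noise alone would give (1). Among fibroblast genes, the promoters of Col1a2 and of the first starts of Col1a1 and Vim were at 1.12 to 1.79% on average in both families, those of Thy1 were at 91.3 to 95.5%, and Col3a1 and Twist1 had no measured window. A later Col1a1 start, at 94937686, was at 1.11% in both families, and other later starts were higher and differed between them, Col1a1 at 94939012 with 29.3 and 60.2%, Col1a1 at 94945368 with 34.2 and 67.5% and Vim at 13579369 with 64.0 and 80.5%. Promoters of the blood gene Ptprc were at 50.6 to 84.8% and those of the pluripotency genes Pou5f1, Nanog and Dppa4 at 32.5 to 78.7%.

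**Figure D1:**
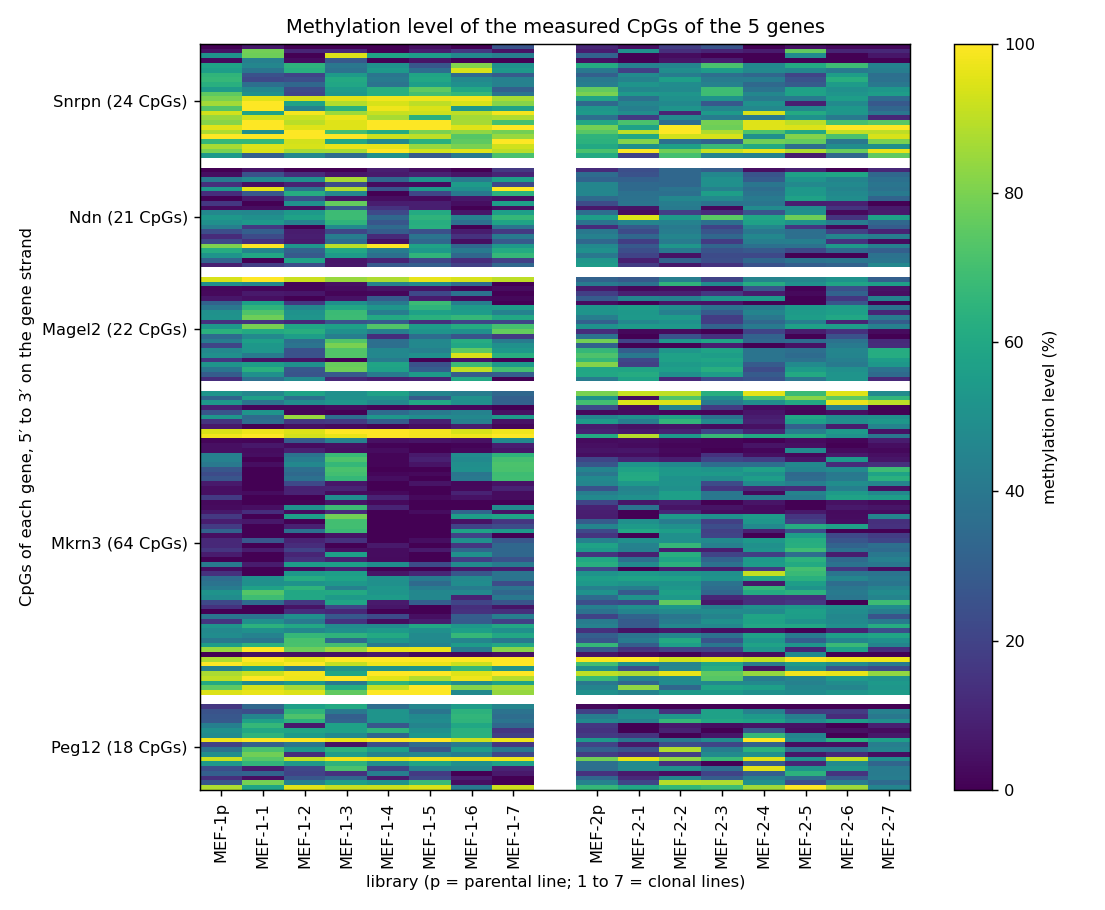
Methylation level (colour, 0 to 100%) of the 149 CpGs of the 5 genes, in rows from 5′ to 3′ on each gene strand, in the 2 parental lines (p) and 14 clonal lines in columns. In MEF-1 the first intron of Snrpn (lower rows of that block, 81.2% on average) and single CpGs of Mkrn3 and Peg12 are high, and a group of Mkrn3 rows near the start is dark in MEF-1 clonal lines 1, 4 and 5.

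All 5 promoters were partly methylated in every library, and Magel2 and Peg12 were higher in MEF-1 than in MEF-2 clonal lines while no difference was called at Snrpn, Ndn and Mkrn3. The share called over all promoter windows of protein-coding genes was 46.9% (8880 of 18914, GENCODE starts) or 47.1% (RefSeq starts), so 2 of 5 is near that background.

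At Snrpn, which encodes the spliceosomal protein SmN, the promoter levels of MEF-1 clonal lines 1 to 7 were 28.8, 26.0, 58.2, 39.4, 58.3, 44.3 and 39.1%. Those of MEF-2 clonal lines 1 to 7 were 48.2, 49.0, 40.8, 36.7, 25, 57.8 and 37.9%. Both families thus spanned nearly the same range, and their means were 42.0% ± 12.8 and 42.2% ± 10.6 (SD over the 7 lines; quasi-binomial test, adjusted p = 0.822). Under other settings the difference was 5.37 points with at least 5 reads (adjusted p = 0.233, quasi-binomial test) and 13.1 points with 2000 bp before the start and nothing after it (adjusted p = 0.0501, quasi-binomial test). That last window reached none of the CpGs of the promoter window, only intronic CpGs 1117 to 1936 bp upstream of the start. The MEF-1 parental library, at 65.1% (95% Wilson interval 54.3 to 74.4%), lay above all 7 of its clonal lines, and the MEF-2 parental library, at 38.2% (30.1 to 47.0%), lay within the range of its own. The window rests on 3 CpGs and 46 to 123 calls per library. The 3 CpGs, 32, 59 and 69 bp after the start, moved together from line to line: in MEF-1 clonal line 2 they were at 20, 24.0 and 33.3%, and in line 5 at 58.3, 60 and 56.4%. They lie within 37 bases, so the same reads can cover all 3 and share their sampling error. Their median SD between MEF-1 lines was 14.6 points, beside 10.2 from read sampling. For MEF-2 lines it was 11.2 beside 8.88. No CpG had an SD over 2 times that of sampling. How much of the joint movement was sampling was not tested. The CpG nearest the start differed by -1.80 points between the families (adjusted p = 0.959, quasi-binomial test) and the one with the largest difference, at 60005042, by 2.19 points (adjusted p = 0.694, quasi-binomial test).

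Ndn encodes necdin, a MAGE family protein of postmitotic neurons. Its window was at 30.6, 30.1, 45.1, 21.4, 35.5, 21.9 and 42.4% in MEF-1 clonal lines 1 to 7 and at 30.0, 37.1, 33.1, 37.4, 40.9, 28.9 and 29% in MEF-2 clonal lines 1 to 7. The means, 32.4% ± 9.23 and 33.8% ± 4.77 (SD over lines), differed by less than the spread between lines (adjusted p = 0.717 over RefSeq windows, quasi-binomial test). The parental libraries stood at 30.7% (27.2 to 34.4%) and 36.6% (32.8 to 40.6%), inside the ranges of their clonal lines.

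The equal Ndn means hid opposite differences at single CpGs. At 62348512, 235 bp after the start, MEF-1 clonal lines ranged from 2.78 to 23.5% and MEF-2 clonal lines from 32.3 to 57.6%, a difference of -36.7 points (adjusted p = 0.000245, quasi-binomial test). At 62348653, by contrast, MEF-1 was at 49.3% ± 16.2 and MEF-2 at 15.4% ± 14.1 (SD over lines; quasi-binomial test, adjusted p = 0.0203). The CpG nearest the start, at 62348434, was low in both families, 4.85 and 15.8% on average (quasi-binomial adjusted p = 0.160). In both families, neighbouring CpGs could differ widely within a line. MEF-1 line 7 was at 100.0% at 62348488 and at 4.17% at 62348512, 24 bases on. MEF-2 line 1 was at 2.86% at 62348544 and at 94.3% at 62348548, 4 bases on.

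Magel2 encodes a MAGE protein that works in a ubiquitin ligase complex of endosomal recycling. In MEF-1 clonal lines 1 to 7 its promoter was at 54.0, 39.8, 53.2, 45.7, 46.0, 52.3 and 44.7%, and in MEF-2 clonal lines 1 to 7 at 41.2, 42.3, 30.2, 33.3, 40.1, 42.6 and 29.3%. MEF-1 was higher, 48.0% ± 5.30 against 37.0% ± 5.84 (SD over lines; adjusted p = 0.0167, quasi-binomial test), although MEF-1 line 2 lay below 4 lines of MEF-2. The parental libraries were in the other order, 39.5% (36.2 to 43.0%) in MEF-1 and 44.2% (40.5 to 48.1%) in MEF-2. The call was lost without MEF-1 lines 1, 4 and 5 (10.5 points, quasi-binomial adjusted p = 0.0829) and without the MEF-1 lines of low chromosome 7 coverage (8.94 points, quasi-binomial adjusted p = 0.103), against 10.96 points with all lines. It was also lost with windows of 2000 bp before the starts (4.00 points, quasi-binomial adjusted p = 0.301) and with at least 20 reads (8.38 points, quasi-binomial adjusted p = 0.212).

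The Magel2 difference was uneven along the gene. At 62376864, 146 bp before the start, MEF-1 clonal lines were at 60.9, 62.9, 50.0, 43.3, 51.4, 50.0 and 76.5% and MEF-2 clonal lines at 2.22, 2.94, 0, 20, 7.69, 14.0 and 2.86%. The families did not overlap there (49.3 points, adjusted p = 5.52e-05, quasi-binomial test), and the parental libraries, at 63.8 and 12.5%, stood on the same sides. The CpG nearest the start, 120 bp before it, missed the threshold (33.9 against 13.7%, quasi-binomial adjusted p = 0.0767). In the 5′ UTR, 2 CpGs 31 bases apart had opposite orders, with 52.1% against 9.49% at 62377187 and 8.21% against 44.6% at 62377218 (adjusted p = 0.0170 and 0.00822, quasi-binomial test). Farther upstream, 1961 bp before the start, MEF-1 clonal lines were at 84.6 to 100.0% and MEF-2 clonal lines at 20 to 51.1% (adjusted p = 1.65e-05, quasi-binomial test).

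Peg12, also named Frat3, encodes a small protein that binds the kinase GSK3. MEF-1 clonal lines 1 to 7 had promoter levels of 40, 63.9, 40.9, 47.9, 45.1, 62.2 and 39.0%, and MEF-2 clonal lines 1 to 7 had 37.0, 32.6, 43.9, 39.2, 26.6, 20.8 and 27.6%. The mean was higher in MEF-1, 48.4% ± 10.5 against 32.5% ± 8.08 (SD over lines; adjusted p = 0.0114, quasi-binomial test), with overlap between the families. The parental libraries did not differ in this way, at 24.3% (18.5 to 31.2%) in MEF-1, below all 7 of its clonal lines, and 23.6% (16.9 to 31.8%) in MEF-2. The window rests on 4 CpGs and 76 to 173 calls per library, and with each CpG thinned to 10 reads the difference was 14.6 points (quasi-binomial adjusted p = 0.108).

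Of the 4 CpGs of the Peg12 window 1 was called, and the window was not tested without it. At 62464832, 322 bp before the start, MEF-1 clonal lines were at 33.3, 56.2, 60.9, 35.7, 45.7, 54.8 and 45.5%, whereas no methylated read was found in any MEF-2 clonal line. The 0 of 20 to 41 reads per line allows levels of up to 7.32 to 15%, and the 0 of 205 reads of the 7 lines together up to 1.46%, counting error only (adjusted p = 2.09e-06, quasi-binomial test). The MEF-1 parental library was at 16.3% and the MEF-2 parental library at 2.17%. The other 3 CpGs, 180 to 206 bp before the start, had means of 46.0 to 50.9% in MEF-1 and 34.5 to 54.7% in MEF-2, and none was called. The one nearest the start differed by -3.77 points (quasi-binomial adjusted p = 0.817).

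**Figure D2:**
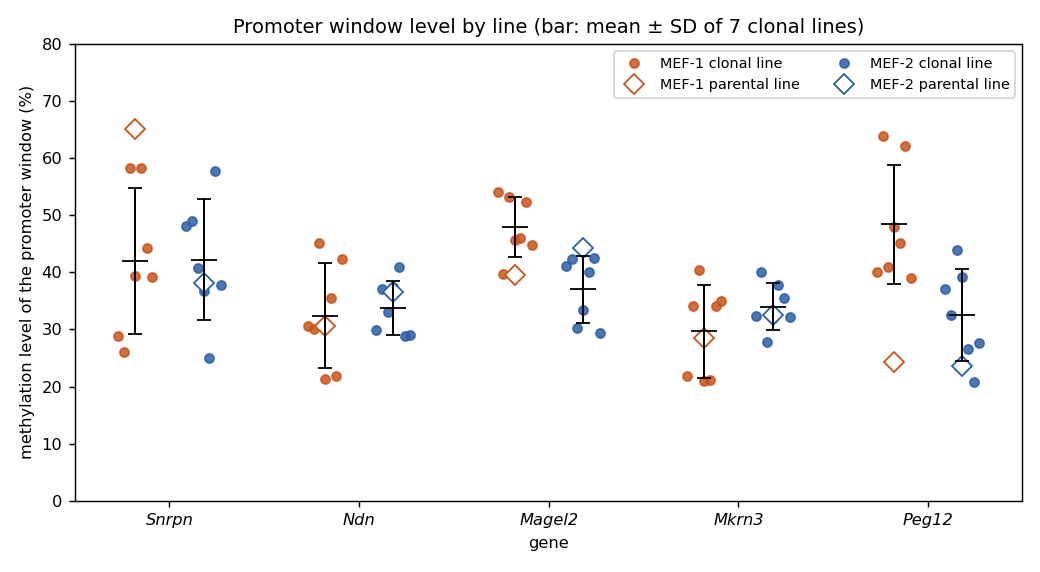
Methylation level of the promoter window of each gene in percent, 1 circle per clonal line, with the mean ± SD of 7 lines as a bar and the parental library as a diamond. Families overlap at all 5 genes, and the MEF-1 parental library lies above its clonal lines at Snrpn (65.1%) and below them at Peg12 (24.3%).

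Mkrn3 encodes a zinc finger ubiquitin ligase known for restraining the onset of puberty. Its window, with 54 CpGs and 1561 to 2997 calls per library, was at 21.8, 34.1, 40.5, 21, 21.1, 34.2 and 35.0% in MEF-1 clonal lines 1 to 7. In MEF-2 clonal lines 1 to 7 it was at 32.3, 40.1, 27.9, 32.0, 37.8, 35.5 and 32.2%. The means of 29.7% ± 8.11 and 34.0% ± 4.12 (SD over lines) did not differ beyond the spread (adjusted p = 0.301, quasi-binomial test), and MEF-1 lines 1, 4 and 5 were the lowest of all. The parental libraries were at 28.5% (26.8 to 30.2%) and 32.5% (30.8 to 34.2%).

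The spread among MEF-1 lines was wide in 6 neighbouring CpGs that lie 81 to 147 bp before the Mkrn3 start, a group named after its values were seen. Pooled over these CpGs, MEF-1 clonal lines 1 to 7 stood at 1.43, 39.4, 69.0, 1.45, 4.30, 46.3 and 69.3%, and the MEF-1 parental library at 35.2% (95% Wilson interval 30.8 to 39.9%). Lines 1, 4 and 5 were thus the lowest and lines 3 and 7 the highest. The interval takes calls of 1 read at neighbouring CpGs as separate and is too narrow for that reason. Against the parental library, 3 to 5 of the 7 lines were called at each of the 6 CpGs (Fisher's exact test, which covers the counting error of reads only). In MEF-1, 3.48% of all pairs of CpG and line were called, and 6.76% at CpGs with a parental level of 10 up to 90%. Neighbouring CpGs of the group can share reads, so their calls are not separate, and the group was picked by its values. MEF-2 clonal lines stood at 27.1 to 38.2% (SD 3.63 points, against 30.7 points in MEF-1), but this average joined 3 CpGs at 50.3 to 54.5% with 3 at 5.27 to 34.9%. No CpG of the group was called between the families. The 3 lowest lines were those of low chromosome 18 coverage, and the part of this in the result was not tested. Chromosome 7 coverage was low in lines 1, 3 and 7, at 1.43, 69.0 and 69.3% over these CpGs, and its part in the result was not tested.

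Next to this group lay CpGs that differed between the families. Pooled over the 4 CpGs from 1 bp after to 40 bp before the start, levels were at 0.840 to 16.9% in MEF-1 clonal lines and 26.2 to 53.5% in MEF-2 clonal lines. All 4 were called, but the group was picked after its values were seen, so its calls and the gap between the families are a description. The next CpG into the gene, 62420123, was at 1.17% in MEF-1 and 3.79% in MEF-2 and was not called. Single CpGs of the group left the pooled ranges, such as 62420143 at 2.44% in MEF-2 line 4. At 62420153, MEF-2 lines 3, 4, 5 and 7 were at 15.4, 11.6, 12.5 and 4.44%, within the pooled MEF-1 range. The CpG nearest the start, at 62420138, was at 0 to 9.76% in 6 of the MEF-1 lines and at 48.5% in line 3, against 40 to 57.8% in MEF-2 (-39.3 points, adjusted p = 0.00978, quasi-binomial test). Without lines 1, 4 and 5 that CpG differed by -35.0 points (quasi-binomial adjusted p = 0.0710). Upstream, called CpGs went both ways: 62421094, 955 bp before the start, was at 47.3% in MEF-1 and 78.8% in MEF-2 (quasi-binomial adjusted p = 0.0351). At 62420479, 340 bp before the start, MEF-1 clonal lines were at 93.8 to 100.0% and MEF-2 clonal lines at 4.94 to 53.7%. This was the largest difference of the window (76.0 points, adjusted p = 4.68e-05, quasi-binomial test), and the parental libraries were at 94.3 and 9.64%. Its neighbour 21 bases away was at 98.0% ± 2.53 and 60.1% ± 15.6 (SD over lines; quasi-binomial test, adjusted p = 0.000124).

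The coding exon held called CpGs in both directions. At 62419704 and 62419714, MEF-1 was at 7.41% ± 7.00 and 7.40% ± 7.68, and MEF-2 at 48.0% ± 4.32 and 49.8% ± 3.35 (SD, n = 7). At 62419644 it was MEF-1 that was midway, with 46.2 to 56.2% in the 7 lines, and MEF-2 that was low, with 0 to 23.5%. Of the 54 CpGs of the window, 14 were called, 4 higher in MEF-1 and 10 higher in MEF-2. All CpGs gave shares of 20.2% called, 11.6% and 8.53%. Of all Mkrn3 CpGs, 87.5% had a parental level of 10 up to 90% in a family. CpGs of that kind gave 41.3%, 23.25% and 18.01%. Beside them, 14 of 54 called is low and 10 of 54 higher in MEF-2 is near the share. All 5 called CpGs among the 10 measured farther into the gene were higher in MEF-1.

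**Figure D3:**
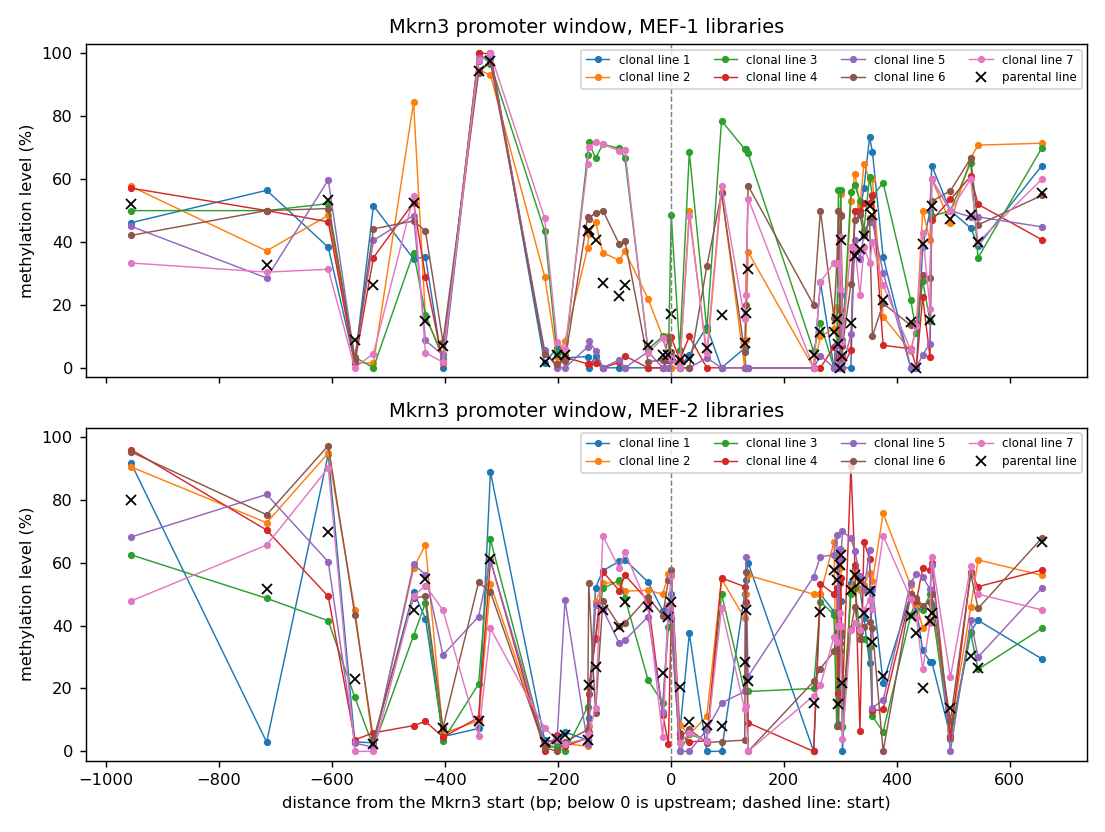
Methylation level in percent of the CpGs of the Mkrn3 promoter window against their distance from the start in bp, in MEF-1 (top) and MEF-2 (bottom), 1 colour per clonal line and crosses for the parental library. Just upstream of the start, MEF-1 clonal lines 1, 4 and 5 lie at 1.43 to 4.30% and lines 3 and 7 near 69% over 6 CpGs, while a pair of CpGs farther upstream lies at 93.1 to 100.0% in all 7 MEF-1 lines.

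Farther into the gene, levels pooled over all CpGs beyond the window did not overlap between the families at Snrpn and Mkrn3 and overlapped at Peg12. How often the families do not overlap at other CpGs or stretches of the table was not measured, so this is given as a description. The pooled levels weigh each CpG by its reads. Of the CpGs in these stretches, 5 of 15 were called at Snrpn, 5 of 10 at Mkrn3 and 4 of 14 at Peg12. Over the whole gene, 20.8% of CpGs were called at Snrpn and 29.7% at Mkrn3, against 20.2% of all CpGs. Among CpGs with a parental level of 10 up to 90% in a family the share was 41.3%. No CpG was measured beyond the windows of Ndn and Magel2 in this direction. In the first intron of Snrpn, 15 CpGs from 1066 to 2305 bp after the start were at 82.0, 75.8, 78.7, 87.6, 83.4, 81.0 and 80.1% in MEF-1 clonal lines 1 to 7. In MEF-2 clonal lines 1 to 7 they were at 46.3, 50.0, 56.7, 62.2, 50.2, 56.3 and 47.8%, so the families did not overlap. The parental libraries, at 81.4% (77.8 to 84.4%) and 56.2% (52.5 to 59.8%), were close to the means of their clonal lines, 81.2% ± 3.71 and 52.8% ± 5.73 (SD, n = 7). All 5 called CpGs of Snrpn were in this intron and higher in MEF-1, by 36.3 to 51.2 points. At 60003937 the MEF-1 clonal lines ran from 87.1 to 97.9% and the MEF-2 clonal lines from 35.1 to 55.6% (adjusted p = 2.08e-06, quasi-binomial test). The other 10 CpGs of the intron were not called. Of these, the pair closest to the promoter, 1068 and 1066 bp after the start, was at 51.9 and 50.5% on average in MEF-1 and at 55.2 and 51.6% in MEF-2. Farther in, 60002806 was at 43.4 and 42.2%, 60002887 at 92.3 and 89.6% and 60003221 at 74.8 and 84.5% in MEF-1 and MEF-2. The rest were higher in MEF-1: 60003737 (73.0 and 45.8%), 60003295 (91.7 and 73.6%), 60003211 (91.5 and 77.7%), 60003140 (72.3 and 60.6%) and 60003290 (97.9 and 89.2%).

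The 3′ part of Mkrn3 showed the same order, with 10 CpGs at 67.7 to 81.5% in MEF-1 clonal lines (75.6% ± 5.49) and 47.5 to 56.8% in MEF-2 clonal lines (51.6% ± 3.70; SD, n = 7). At 62418576 the means were 96.3% ± 3.61 and 48.6% ± 6.79 (adjusted p = 2.10e-06, quasi-binomial test). In the 3′ UTR of Peg12, 14 CpGs were at 41.2 to 59.2% and 31.7 to 56.5%, an overlap that came from MEF-2 line 4. At 62463009, MEF-2 line 4 was at 100.0%, as high as the MEF-1 lines (92.5 to 100.0%), with the other MEF-2 lines at 38.7 to 62.8%. Upstream of the Snrpn window, in an intron of the longer transcript, 6 CpGs were at 24.9 to 46.8% and 19.3 to 39.2%, and none was called.

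**Figure D4:**
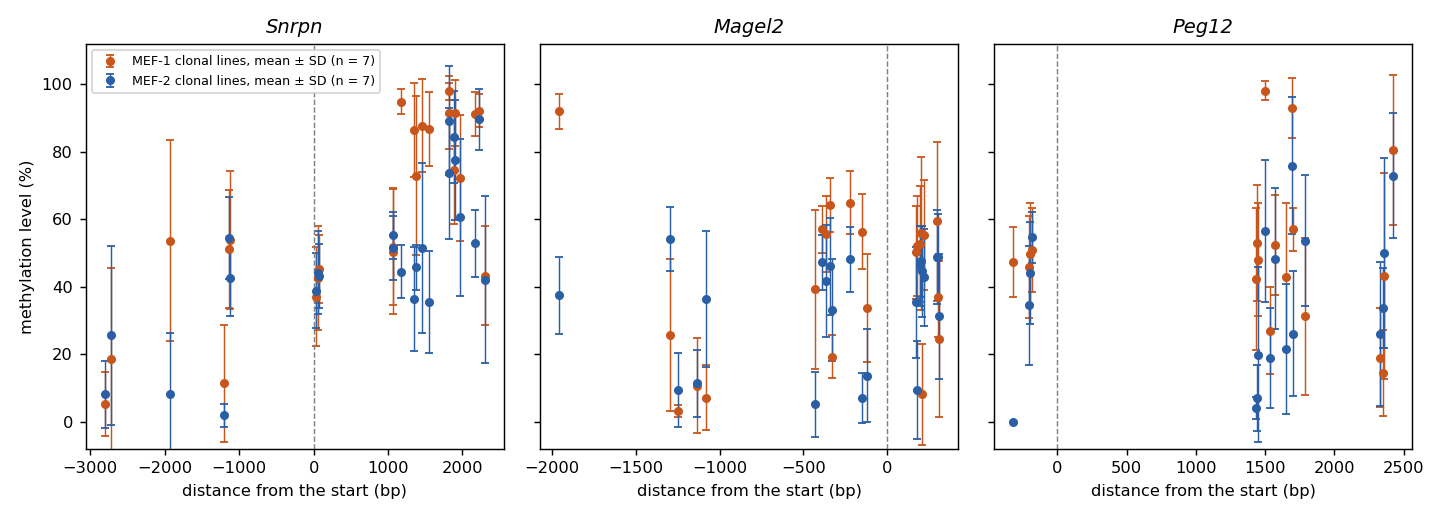
Mean methylation level in percent ± SD of the 7 clonal lines of MEF-1 (orange) and MEF-2 (blue) at each CpG of Snrpn, Magel2 and Peg12, against the distance from the start in bp (dashed line, start). At Snrpn the families coincide at the promoter (42.0 and 42.2% over the window) and separate in the first intron (81.2 and 52.8%).

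Over all 149 CpGs, 39 were called between the families (26.2%), 25 higher in MEF-1 (16.8%) and 14 higher in MEF-2 (9.40%). Of all measured CpGs 20.2% were called, 11.6% as higher in MEF-1 and 8.53% as higher in MEF-2. Most CpGs of the table are near 0 or 100% in both families, and 91.9% of the 149, against 45.5% of the table, had a parental level of 10 up to 90% in at least 1 family. Among CpGs of that kind 41.3% were called, more than among the 5 genes. By gene, 5 of 24 were called in Snrpn and 5 of 18 in Peg12, all higher in MEF-1, and 4 of 21 in Ndn, 6 of 22 in Magel2 and 19 of 64 in Mkrn3 in both directions. At an unadjusted p under 0.05 there were 65 of 149, and 362782 of all 1203687. Without MEF-1 lines 1, 4 and 5 the count was 30, and without the 3 MEF-1 lines of low chromosome 7 coverage it was 29.

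Whether the Snrpn promoter window, here 3 CpGs, and the other promoters stood at different levels in a line was tested. The measure was the Snrpn level minus that of each other promoter, in 8 comparisons of 7 lines by the exact sign-flip test (unadjusted, lowest possible p, 0.0156). The first intron of Snrpn was not part of it. With these windows, all reads and all 7 lines, no comparison fell under 0.05. The closest was Snrpn above Mkrn3 in MEF-1, by 12.3 points ± 14.1 (SD) in 6 of 7 lines (exact p = 0.0625), with 8.22 points ± 11.1 in MEF-2, also in 6 of 7 lines (exact p = 0.0938). Both passed 0.05 when 1 line was left out, the first without MEF-1 line 2 (15.8 points, exact p = 0.0313) and the second without MEF-2 line 5 (11.7 points, exact p = 0.0313). In each case that line was the only one with Snrpn lower. With 6 lines of one direction this test always gives 0.0313, so the p-value was fixed by the line left out. The Mkrn3 difference in MEF-1 also passed with reads thinned to 10 (15.1 points, exact p = 0.0156) and with windows of 500 bp (13.3 points, exact p = 0.0469). With windows of 2000 bp before the starts it was 14.5 points (exact p = 0.0156), and in MEF-2 it turned to -0.184 points (exact p = 0.953). Those windows hold no CpG of the Snrpn promoter window, only intronic Snrpn CpGs 1117 to 1936 bp upstream, so that promoter is not compared there. Snrpn was above Ndn by 9.57 points ± 12.3 in MEF-1 (exact p = 0.125) and 8.44 points ± 14.1 in MEF-2 (exact p = 0.156). For Magel2 the differences were -5.95 points ± 12.2 and 5.19 points ± 9.67 (exact p = 0.234 and 0.188), and for Peg12 -6.40 points ± 18.9 and 9.68 points ± 14.3 (exact p = 0.438 and 0.125). Without MEF-2 line 5, again the only line with Snrpn lower, the Magel2 difference in MEF-2 was 8.57 points (exact p = 0.0313, fixed in the same way). With 2000 bp before the starts the Magel2 difference in MEF-1 turned to 9.24 points (exact p = 0.0625) and that of Peg12 in MEF-2 to -0.615 points (exact p = 0.859), and with reads thinned the latter was 9.05 points (exact p = 0.0313). The spread of single lines was wide, from -37.9 points (Peg12, a MEF-1 line) to 37.2 points (Mkrn3, a MEF-1 line).

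Between the families these differences were compared by an exact permutation test of 7 against 7 lines, in 4 comparisons. They were -11.1 points for Magel2 (exact p = 0.0804), -16.1 points for Peg12 (exact p = 0.0979), 1.14 points for Ndn (exact p = 0.871) and 4.13 points for Mkrn3 (exact p = 0.562). That of Magel2 was -14.2 points without MEF-1 line 5 and -14.5 points without MEF-2 line 5 (exact permutation p = 0.0262 and 0.0163), and that of Peg12 was -20.03 points without MEF-1 line 3 (exact permutation p = 0.0361). With windows of 2000 bp before the starts and nothing after them, that of Mkrn3 was 14.7 points (exact permutation p = 0.0192), that of Magel2 turned to 9.09 points (exact p = 0.131) and that of Peg12 was -2.80 points (exact p = 0.655). There the Snrpn value again came from upstream intronic CpGs and not from those of its promoter window. In the parental libraries, Snrpn stood above the other 4 promoters by 25.5 to 40.8 points in MEF-1, and between -6.03 and 14.6 points from them in MEF-2.

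Clonal lines were also set against their parental library at each CpG by Fisher's exact test. In MEF-1, 86 of 1043 pairs of CpG and line were called (8.25%, against 3.48% over the table), and in MEF-2 87 of 1043 (8.34%, against 6.57%). Among the CpGs of the table with a parental level of 10 up to 90% the shares were 6.76 and 12.8%. Mkrn3, with 64 of the 149 CpGs, held 45 and 41 of the called pairs, 10.0 and 9.15% of its 448 pairs per family. Per line, 7 to 17 of the 149 CpGs were called in MEF-1 and 8 to 19 in MEF-2. Over all CpGs of the table the share called also differed between lines, from 1.90 to 5.02% in MEF-1 and from 5.16 to 7.61% in MEF-2. Outside Mkrn3 the most often called was 60007047 in an intron of the longer Snrpn transcript, where 5 of the 7 MEF-2 lines were called against a parental level of 31.9%. MEF-2 line 5 was at 48.8% there and the other 6 lines at 0 to 5.88%, and the MEF-1 lines ran from 0 to 94.9%.

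The fidelity score of a CpG is the proportion among 14 clones whose level is 0 to 10, 40 to 60 or 90 to 100%, the levels that stable copies could give. Its mean was 0.650 over the 149 CpGs, 0.833 over the whole table and 0.687 over CpGs with a parental level of 10 up to 90%. By gene it was 0.723 in Mkrn3, 0.628 in Snrpn, 0.615 in Peg12, 0.610 in Magel2 and 0.520 in Ndn. A score of 1 was reached by 7 CpGs (4.70%, against 37.0% of all CpGs and 6.21% of those with a parental level of 10 up to 90%), all in Mkrn3, among them 62420138 at the start, which kept MEF-1 lines at 0 to 9.76 or 48.5% and MEF-2 lines at 40 to 57.8%.

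The levels were also counted by class, without a test. Of the levels of the 149 CpGs in MEF-2 clonal lines, 40.3% lay at 40 to 60%, 19.8% under 10% and 4.31% at 90% or more. In MEF-1 clonal lines the shares were 27.5, 24.9 and 12.4%. Over CpGs of the table with a parental level of 10 up to 90%, 20.3% (MEF-2) and 20.5% (MEF-1) lay at 40 to 60%, 24.1 and 21.4% under 10% and 23.4 and 27.1% at 90% or more. Peg12 had like shares at 40 to 60% in both families, 34.9% in MEF-1 and 34.1% in MEF-2. Per line, 54.4 to 75.8% of the 149 levels were faithful in MEF-1, highest in line 4 and lowest in lines 3 and 7, and 51.7 to 74.5% in MEF-2. Over all CpGs of the table, MEF-1 lines 3, 4 and 7 were at 84.9, 82.4 and 83.5%. Lines 3 and 7 had low chromosome 7 coverage, as had line 1, which was at 69.1% of the 149 levels. The part of coverage in these shares was not tested. Similarity to the nearest measured neighbour, as the proportion of lines with at most 10 points between both, was 0.506 on average, against 0.658 over the table and 0.431 over CpGs with a parental level of 10 up to 90%.

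Other genes in or near the domain, taken from a list, gave context, and whether they are imprinted was not examined. Of 13 genes named, 12 had a measured window, and of 12 windows tested (Snurf with the CpGs of Snrpn among them) 5 were called, 2 higher in MEF-1 and 3 higher in MEF-2, near the 46.9% of all promoter windows. Cyfip1, an actin regulator, was at 27.9% in MEF-1 and 22.6% in MEF-2 (quasi-binomial adjusted p = 0.0278). The GABA receptor gene Gabra5 (38.9 and 44.3%, quasi-binomial adjusted p = 0.0414), Nipa2 (1.79 and 4.36%, quasi-binomial adjusted p = 0.00343) and Tubgcp5 (5.54 and 6.90%, quasi-binomial adjusted p = 0.00868) were higher in MEF-2. Ube3a, which is expressed from the maternal copy in neurons, was low in both families at 4.87 and 5.92% (quasi-binomial adjusted p = 0.185).

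Imprinted promoters outside the domain were set beside those of the 5 genes. On chromosome 7, Peg3 was at 51.2% ± 6.85 in MEF-1 against 44.3% ± 5.49 in the MEF-2 clones (SD over lines; quasi-binomial test, adjusted p = 0.0962), and the other 3 tested windows, all of Inpp5f, had adjusted p of 0.215 to 0.686. The windows of the non-coding genes Kcnq1ot1, at 50.5% ± 6.52 in MEF-1 and 38.1% ± 4.17 in MEF-2, and H19, at 70.6% ± 5.09 and 63.0% ± 4.30, were not tested. On other chromosomes, 3 of 11 tested windows were called, all at Mest, below the 46.9% of all promoter windows. Of these, 2 hold the same 11 CpGs, at 88.3% in MEF-1 and 75.8% in MEF-2, and the other was at 88.3 and 95.4%. The Mest window at 30738050, at 50.4 and 48.8%, was not called (quasi-binomial adjusted p = 0.425). The spread over MEF-1 clones ranged widely in that list, from 92.6 to 96.1% at Nnat and 38.8 to 56.2% at Peg10 to 7.69 to 73.0% at the 6 CpGs of Airn, with 26.0 to 58.3% at the 3 CpGs of the Snrpn window between these.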

How the data were processed

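Target capture bisulfite sequencing was measured in 2 parental and 14 clonal lines. Reads were trimmed with Trim Galore 0.6.0 and aligned to mm10 with Bismark (submitters' processing notes), and per the paper's methods those of mapping quality under 10 were dropped and both strands of a CpG joined. The removal of PCR duplicates was not given in the sources used here. The deposited values are counts of unmethylated and methylated reads per CpG, not normalised. The series-wide table deposited by the authors holds the same counts where every library reached 10 reads, and its 2 columns of coverage and percentage per sample were not used. All 149 member CpGs lay at a CG of GRCm38, and equal counts were found in every library table. Chromosomes 12, 18, 19, X and Y are not in that table.

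The members and lists were chosen with earlier results of these data known. Named were every promoter window with its CpG nearest the start and its CpG of largest family difference, and genes of the lists that were called (1 is not reported here), and others in the text were chosen after their values were seen. Counts were summed per window or CpG and compared by a quasi-binomial logistic model (F-test, dispersion at least 1, 7 against 7 clonal lines), with Benjamini-Hochberg adjustment over all windows or CpGs and a call at adjusted p under 0.05. Clonal and parental counts were compared by Fisher's exact test, adjusted over all pairs of a family. It sets 1 library against 1 and takes reads as separate molecules, so its p-values cover counting error only. All tests were two-sided. The tests were checked on simulated data (Python 3.11.15, numpy 2.4.6, scipy 1.17.1 and numba 0.67.0). Alternatives were other read minimums, thinning, windows, tests and lines left out. Lines from one embryo share their source, so p-values measure the spread between lines. Wilson intervals cover counting error only, since PCR reads are not independent molecules, and take calls of 1 read at several CpGs as separate.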

Additional observations from a re-analysis of the deposited data

How the results depend on the processing

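Requiring 20 reads left 59 of 149 CpGs and no window at Snrpn, Ndn and Peg12, so only Magel2 and Mkrn3 were tested. With that minimum 0 promoters were called (quasi-binomial test; Magel2 8.38 points, adjusted p = 0.212), Peg12 62464832 differed by 47.4 points (quasi-binomial adjusted p = 1.27e-06), 19 CpGs differed between the families, 56 MEF-2 pairs differed from the parent and the mean fidelity score was 0.737. Thinned to 10 reads, 1 promoter and 32 CpGs were called, but 0 pairs in either family by Fisher's exact test (fewer reads), Snrpn minus Mkrn3 in MEF-1 was 15.1 points (exact p = 0.0156) and Snrpn minus Peg12 in MEF-2 9.05 points (exact p = 0.0313). With windows of 500 bp, Snrpn minus Mkrn3 in MEF-1 was 13.3 points (exact p = 0.0469).

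With 2000 bp before the starts, 1 promoter was called, Snrpn minus Mkrn3 was 14.5 points in MEF-1 (exact p = 0.0156), -0.184 points in MEF-2 and 14.7 points between families, Snrpn minus Magel2 was 9.24 points in MEF-1 and 9.09 points between families, Snrpn minus Peg12 was -0.615 points in MEF-2, the Magel2 promoter differed by 4.00 points (adjusted p = 0.301), and Ndn had no measured CpG. The Snrpn window of this setting held none of the CpGs of its promoter window, only intronic CpGs 1117 to 1936 bp upstream. The cause of these changes was not tested.

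The Snrpn difference was 13.1 points there, 5.37 points with at least 5 reads and 1.90 points thinned, none called. With fidelity windows of 0 to 20, 30 to 70 and 80 to 100% the mean score was 0.904. With the replicate block 1 promoter and 33 CpGs were called (Peg12 adjusted p = 0.0575, Mkrn3 62420138 adjusted p = 0.0520), but lines of the same number share only a number (correlations of their deviations -0.00432 to 0.00353).

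Left out after the data were seen, MEF-1 lines 1, 4 and 5 changed the Ndn and Mkrn3 promoter differences to 1.13 and 1.95 points and Snrpn minus Ndn and Mkrn3 between families to -1.42 and -2.24 points, with 1 promoter called. Without the MEF-1 lines of low chromosome 7 coverage 1 promoter was called and Peg12 62464690 differed by 2.58 points. Without each line in turn, 2 promoters and 33 to 40 CpGs were called. Over the same settings the Snrpn promoter difference was -3.04 to 2.50 points, that of Ndn -3.42 to 0.534, Snrpn 60005079 -5.33 to 1.06 and Snrpn 60005042 -0.237 to 4.20. Snrpn minus Ndn between families ranged from -2.92 to 4.54, minus Magel2 from -14.5 to -7.93, minus Mkrn3 from -0.00659 to 7.53 and minus Peg12 from -20.0 to -10.8 points. Within lines, Snrpn minus Magel2 in MEF-2 ranged from 3.53 to 8.57 and Snrpn minus Mkrn3 from 8.21 to 15.8 in MEF-1 and 5.88 to 11.7 in MEF-2. Of all values under another setting, 142 of 179 kept direction, side of the threshold or size, as did 380 of 406 with one line left out. Some of these could not change, so the counts overstate stability. Leaving out a line of one family does not touch the within-line comparisons of the other family. Windows of 500 bp gave the same differences as the main windows at Snrpn, Ndn, Magel2 and Peg12. At Snrpn and Peg12 the windows rest on 3 and 4 CpGs, and the smallest difference detectable there was not measured.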
